A study of Mus musculus with 405 samples.

Results

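Cultured mouse cortical neurons were exposed to 5 herbicides of the chloroacetanilide and chloroacetamide family, acetochlor, alachlor, butachlor, metolachlor and dimethenamid, and compared with vehicle. The herbicides were found by their names at the start of the sample titles, and 1 library was held for each, so that 5 of the 405 samples of the series belong here. S-metolachlor, propachlor and pretilachlor, which the same rule would have taken, were not analysed here. The comparison group was the 49 vehicle libraries in the expression table of the screen, which holds 393 libraries and 297 chemicals.

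By the labels, cultures came from embryonic day 15 offspring of C57BL/6J dams and CAST/EiJ males, and this hybrid background was shared by treated and vehicle cultures. Each herbicide was applied at 10 μM from day 7 in vitro for 24 h, at a concentration that the study had selected as not cytotoxic, and vehicle cultures received DMSO. Serum was present only in the plating medium, and uridine 5'-triphosphate and 5-fluoro-2'-deoxyuridine were added at the first medium change to hold back dividing cells in all groups. Polyadenylated RNA was sequenced. The table gives, for 13304 genes named by symbol, values centred on the median of each gene, so it holds differences and no expression levels. Unless another comparison is named, values below are log2 differences from the mean of the 49 vehicle libraries, where 1 is a doubling. They were judged against the spread between vehicle libraries. The test of the herbicides as a group against vehicle pooled this with the spread between the 5 herbicides. The 49 vehicle libraries dominate that pool. Its p-values therefore do not measure how far a difference varies from herbicide to herbicide, and the 5 compounds are not replicates of 1 condition. The labels do not say which vehicle libraries came from separate cultures. P-values that use them therefore measure the spread between these libraries, which may in part be technical.

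The cultures were checked against marker genes in 4 vehicle libraries of a separate count table, with totals of 2778615 to 7833440 counts. All 10 neuronal markers reached 1 CPM, a count scaled to the library total, with a summed level of 6969 CPM. Of the 9 astrocyte markers 8 did so, with 832 CPM in all, and of the 10 microglial markers 7 did, with 34.1 CPM. None of the 5 endothelial markers reached 1 CPM. The 5 herbicide libraries had an SD over genes of 0.37 to 0.42 on the log2 scale, inside the 0.26 to 0.52 of the vehicle libraries. For all 13304 genes the median difference of the herbicides was -0.01.

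All 5 herbicides carry a chlorine atom on the carbon next to an amide carbonyl. In weeds the group reacts with the condensing enzymes that elongate very long chain fatty acids, and in plants and animals it reacts with the thiol of glutathione, which detoxifies the herbicide. Keap1, the protein that marks the transcription factor NRF2 (Nfe2l2) for degradation, carries cysteines that electrophiles can modify. NRF2 that escapes degradation binds antioxidant response elements in the promoters of genes for glutathione synthesis and conjugation, thioredoxin recycling, heme breakdown and NADPH supply. In brain cultures this programme is known to be most active in astrocytes.

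The herbicides differ in few places. Acetochlor and alachlor are isomers, of which acetochlor has an ethoxymethyl chain and an ethyl and a methyl group on its ring, and alachlor a methoxymethyl chain and a pair of ethyl groups. Butachlor is alachlor with a butoxymethyl chain. Metolachlor has the ring of acetochlor and a branched methoxypropyl chain, and dimethenamid has the chain of metolachlor on a dimethylthiophene ring in place of benzene.

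The genes that differed most from vehicle encode antioxidant enzymes, and short stretches of the promoters of 4 of them are shown because they hold the core of an antioxidant response element. The letters TGACNNNGC were searched on both strands in windows from 250 bases before to 50 bases after each RefSeq gene start of GRCm38.p6. Capitals mark the match, which in all 4 stretches lies on the reverse strand and so reads as GCNNNGTCA.
Srxn1 (chr2:152105542-152105570, + strand): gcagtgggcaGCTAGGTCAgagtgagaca
Txnrd1 (chr10:82859104-82859132, + strand): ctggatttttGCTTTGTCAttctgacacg
Gclm (chr3:122245413-122245441, + strand): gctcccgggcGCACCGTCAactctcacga
Mgst1 (chr6:138140461-138140489, + strand): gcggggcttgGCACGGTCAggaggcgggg
Counted from the gene start, the match began at position -92 in Txnrd1, at -134 in Gclm, at -56 in Mgst1 and at 28 in Srxn1. Of all 32851 windows, 12.4% held the letters. So did 7 of the 20 windows of the genes higher with the herbicides than with vehicle and 1 of the 10 windows of the lower genes, and a gene can have several windows. By gene, of the 11 that were higher, 10 were matched to windows and 6 had a match. These were Srxn1, Txnrd1, Gclm, Mgst1, Calr and Slc6a9, while Gstm1, Gprc5b, Slc3a2 and Shisa5 had windows without a match. Of the 8 genes that were lower, 6 were matched to windows and 1, Akap1, had a match. The share of all genes with a match was not counted, so the counts by gene have no background beside them. Hmox1, Emc8 and Ppp1r3e were not matched. A match describes letters in a window and not a site in use.

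As a group of 5, the herbicides changed 19 genes against vehicle, which is 0.143% of the 13304 tested (limma, Benjamini-Hochberg adjusted p below 0.05). Of these 11 rose, 0.0827% of all genes, and 8 fell, 0.0601%. Among the 11 that rose were 6 of the antioxidant and glutathione genes listed for this comparison, Hmox1, Srxn1, Mgst1, Gstm1, Gclm and Txnrd1. At an unadjusted p below 0.05 there were 1257 genes. The count of 19 rested on single libraries, since 5 genes passed without acetochlor, 6 without butachlor, 10 without metolachlor, 12 without alachlor and 34 without dimethenamid.

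Srxn1 encodes sulfiredoxin, which reactivates overoxidized peroxiredoxins. Its difference from the vehicle mean was 2.24 with acetochlor, 1.68 with alachlor, 1.44 with butachlor, 0.97 with metolachlor and 0.09 with dimethenamid, while vehicle libraries ran from -0.47 over a median of 0.01 to 0.29. With 4 herbicides Srxn1 lay above every vehicle library, and with dimethenamid it lay among them. The group difference was 1.28 (SE 0.126, adjusted p = 4.2e-10), a 2.43-fold rise.

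Hmox1 encodes heme oxygenase, which opens the heme ring. It stood at 2.27 with acetochlor, 2.03 with alachlor, 2.05 with butachlor, 1.23 with metolachlor and 0.17 with dimethenamid, against vehicle libraries from -0.81 over a median of 0.02 to 0.67. The same 4 herbicides lay above all vehicle libraries and dimethenamid within them. The group rise was 1.55 (SE 0.180, adjusted p = 7.6e-08), or 2.92-fold.

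Txnrd1 encodes the cytosolic thioredoxin reductase, which passes electrons from NADPH to thioredoxin. It stood at 0.75, 0.63, 0.82, 0.54 and 0.04 with acetochlor, alachlor, butachlor, metolachlor and dimethenamid, and vehicle libraries spanned -0.32 to 0.28 with a median of 0.01. The rises were smaller than those of Srxn1, and the division between 4 herbicides above the vehicle libraries and dimethenamid within them was repeated. Over the group Txnrd1 rose by 0.56 (SE 0.074, adjusted p = 3e-06), or 1.47-fold.

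These were among the few genes that lay above all 49 vehicle libraries with 4 of the herbicides. There were 5 such genes, 0.0376% of all, and the other two were Blvrb and Pex11a, named here after their values were seen. None lay above all vehicle libraries with all 5 herbicides. Blvrb encodes biliverdin reductase B, a flavin reductase that uses NADPH, and it stood at 1.52 with acetochlor, 1.73 with alachlor, 1.41 with butachlor, 1.20 with metolachlor and -2.33 with dimethenamid. With metolachlor Blvrb only just cleared the highest vehicle library (1.2019 against 1.2015). The dimethenamid library lay below every vehicle library (-2.27 to 1.20), and the group difference of Blvrb did not pass the test (0.71, adjusted p = 0.57). Pex11a, a peroxisomal membrane protein, stood between 0.87 and 1.11 with the 4 herbicides and at -0.44 with dimethenamid (adjusted p = 0.50).

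Glutathione is made from cysteine, glutamate and glycine, and Gclm, the modifier subunit of the rate-limiting ligase, rose as a group by 0.58 (SE 0.105, adjusted p = 0.0028). Its values were 1.22 with acetochlor, 0.89 with butachlor, 0.43 with alachlor and 0.17 with both metolachlor and dimethenamid, against vehicle libraries from -0.44 over a median of 0.00 to 0.47. Acetochlor and butachlor lay above the vehicle libraries and the other three within them. The catalytic subunit Gclc stood at 0.15, 0.27, 0.39, -0.33 and -0.07 with acetochlor, alachlor, butachlor, metolachlor and dimethenamid, all within the vehicle range of -0.53 to 0.68, and did not pass the test. Slc7a11, which imports cystine for this synthesis, stood at 0.96 with butachlor, above the vehicle range of -0.54 to 0.55, and at 0.34, 0.41, 0.00 and -0.01 with acetochlor, alachlor, metolachlor and dimethenamid. Neither the group difference of Slc7a11 (0.34, adjusted p = 0.25) nor that of butachlor alone (adjusted p = 0.0862) passed the test. Slc3a2, the heavy chain that pairs with Slc7a11 and other amino acid transporters, rose by 0.32 (SE 0.074, adjusted p = 0.047).

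Of the enzymes that join glutathione to electrophiles, Gstm1 and Mgst1 rose. Gstm1, a cytosolic transferase, stood at 1.20 with acetochlor, 1.11 with alachlor, 0.93 with butachlor, 0.49 with metolachlor and 0.28 with dimethenamid, and vehicle libraries ran from -0.72 over a median of 0.04 to 0.73. The first 3 herbicides lay above the vehicle libraries, and the group rise was 0.80 (SE 0.138, adjusted p = 0.0012). Gstm1 has close relatives in the same gene cluster with which reads may be shared, and of these Gstm2, Gstm4, Gstm5, Gstm6 and Gstm7 did not pass the test. Mgst1, a membrane-bound transferase, stood at 2.13 with acetochlor, 1.03 with alachlor, 1.05 with butachlor, 0.68 with metolachlor and 0.56 with dimethenamid, against vehicle libraries from -1.18 over a median of -0.02 to 1.00. All 5 herbicides lay above the vehicle mean and the first 3 above every vehicle library, with a group rise of 1.09 (SE 0.20, adjusted p = 0.0029).

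Leaving out 1 herbicide at a time separated these genes. Srxn1, Hmox1 and Txnrd1 passed the test without any 1 of the 5. Without acetochlor, Gstm1 (adjusted p = 0.0529), Mgst1 (0.112) and Gclm (0.124) no longer passed, and Gclm also failed without butachlor (0.0976). Acetochlor had the highest value of the 5 herbicides in each of these 3 genes.

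**Figure D1:**
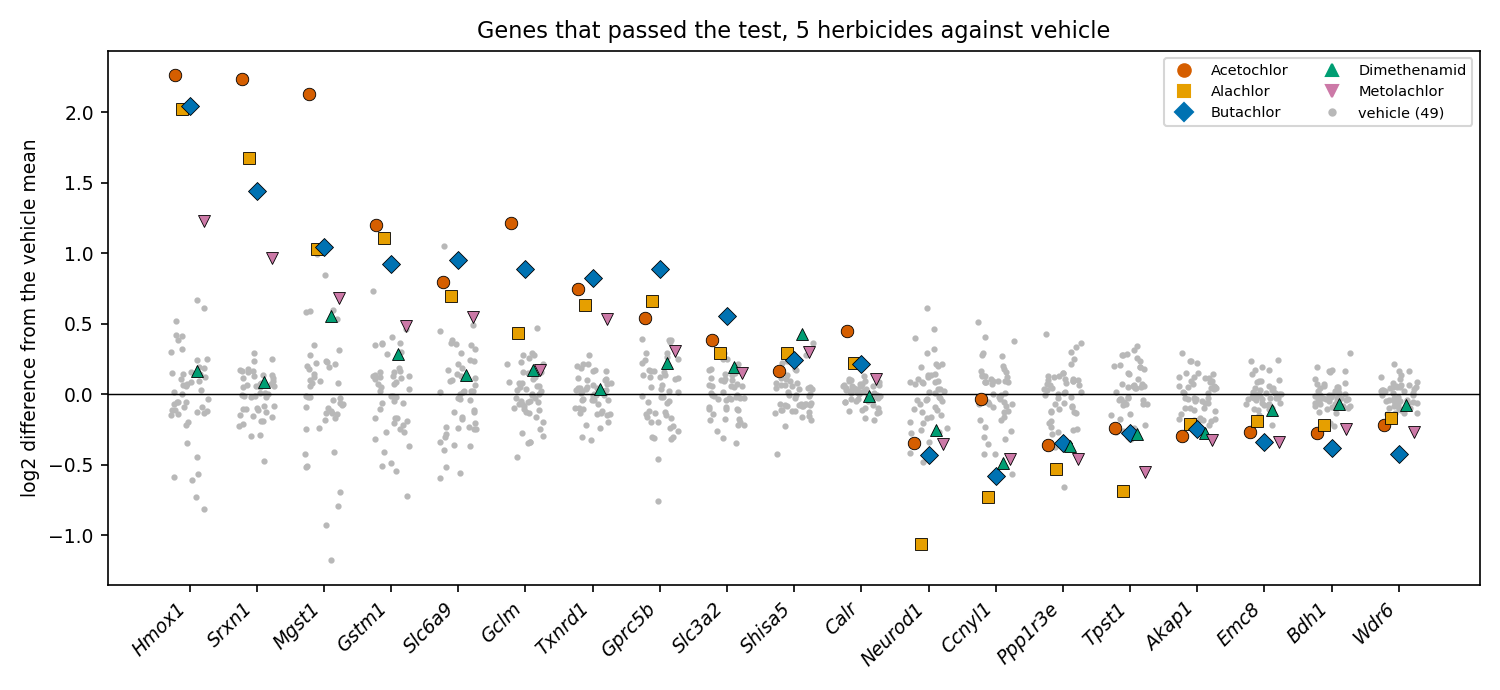
The 19 genes that passed the test are plotted on the horizontal axis against the log2 difference from the vehicle mean on the vertical axis, with grey points for the 49 vehicle libraries and coloured symbols for the 5 herbicides. Srxn1, Hmox1 and Txnrd1 show 4 herbicides above all vehicle libraries with dimethenamid among them, whereas the 8 genes that fell lie much closer to the vehicle libraries.

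The list of NRF2 antioxidant and NADPH genes, drawn up with earlier results of these data known, held 31 genes, all in the table. Of these 5 rose and 0 fell as a group, where 0.143% of all genes passed the test, and 27 of 31 differences were above 0, beside 47.5% of all genes. The median difference of the list was 0.19. By compound the median was 0.30 with acetochlor, 0.40 with alachlor, 0.39 with butachlor, 0.02 with metolachlor and 0.04 with dimethenamid, and medians of the same list in single vehicle libraries ran from -0.19 to 0.16. The first 3 herbicides were above this range and the other two within it.

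Counted by gene, 11 of the 31 lay above every vehicle library with acetochlor, 9 with alachlor, 14 with butachlor, 4 with metolachlor and 0 with dimethenamid. Over all genes these shares were 2.97%, 1.65%, 1.83%, 1.53% and 1.45%. With metolachlor the 4 genes were Srxn1, Hmox1, Txnrd1 and Blvrb, the last only just (1.2019 against a vehicle highest of 1.2015). Dimethenamid was the 1 herbicide without a listed gene above the vehicle libraries, and Blvrb lay below them.

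Nqo1, the quinone reductase often taken as the index gene of NRF2, stood at 2.84 with acetochlor, 2.36 with butachlor, 1.31 with alachlor, 0.63 with dimethenamid and -0.26 with metolachlor. Its vehicle libraries ran from -4.02 over a median of 0.20 to 1.41, a wider spread (SD 0.87) than that of Srxn1 (SD 0.16), and its mean in the vehicle counts was 2.13 CPM. Acetochlor and butachlor lay above the vehicle libraries, and the group difference of 1.38 did not pass the test (adjusted p = 0.20). Osgin1, an oxidative stress-induced growth inhibitor, stood at 2.73 with acetochlor and 1.49 with butachlor, above its vehicle range of -2.25 to 1.33 (group adjusted p = 0.21). Genes of the pentose phosphate pathway, which supply NADPH, stayed near vehicle, with group differences of 0.26 for G6pdx, 0.09 for Pgd, 0.18 for Taldo1 and -0.00 for Tkt, none of which passed the test. The regulators themselves, Nfe2l2, Keap1, Bach1, Maff and Mafg, had group differences from -0.10 to 0.16 that did not pass the test.

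**Figure D2:**
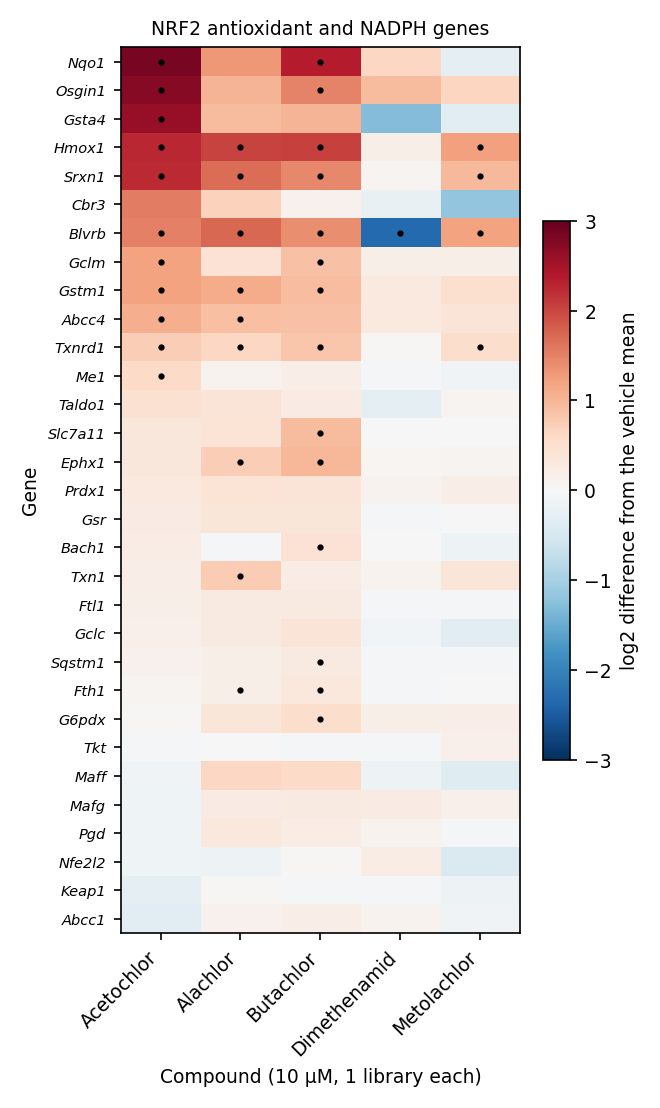
The 31 NRF2 list genes are the rows and the 5 herbicides the columns, colour gives the log2 difference from the vehicle mean with a scale ending at 3 in each direction, and a dot marks a value outside the range of the 49 vehicle libraries. Dots are many in the columns of acetochlor, alachlor and butachlor, 4 stand in the metolachlor column, and the only dot with dimethenamid is the low value of Blvrb.

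The list of glutathione conjugation and turnover genes held 47, of which 32 were in the table. As a group 3 rose, Gstm1, Mgst1 and Gclm, and 0 fell, where 0.143% of all genes passed. The median difference was 0.17, or 0.09 with other chemicals in place of vehicle, and 2 of these are also on the NRF2 list. Above all vehicle libraries lay 5 of the 32 with acetochlor, 3 with alachlor, 5 with butachlor and 0 with both metolachlor and dimethenamid, beside 2.97%, 1.65%, 1.83%, 1.53% and 1.45% of all genes. Gss, which completes glutathione, stood at 1.23 with alachlor and 0.98 with butachlor, above its vehicle highest of 0.95, and at 0.00, 0.03 and -0.45 with acetochlor, metolachlor and dimethenamid. Glutathione peroxidases Gpx1, Gpx3, Gpx4, Gpx7 and Gpx8 lay within the vehicle range with all 5 herbicides.

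The other rises of the group were smaller. Calr, a calcium-binding chaperone of the endoplasmic reticulum, stood at 0.45 with acetochlor, 0.23 with alachlor, 0.22 with butachlor, 0.11 with metolachlor and -0.01 with dimethenamid, against vehicle libraries from -0.18 to 0.13. It was the only rise of the 11 with a herbicide below the vehicle mean, and its group difference was 0.20 (SE 0.044, adjusted p = 0.039). Slc6a9, a glycine transporter, rose by 0.63 (SE 0.144, adjusted p = 0.047) although no library left the vehicle range of -0.59 to 1.05. Gprc5b, an orphan receptor, rose by 0.53 (SE 0.114, adjusted p = 0.032), with acetochlor, alachlor and butachlor above the vehicle libraries. Shisa5 rose by 0.29 (adjusted p = 0.047) and was highest with dimethenamid (0.43). Calr and Gprc5b no longer passed without acetochlor, alachlor or butachlor, Slc6a9 and Slc3a2 without any 1 herbicide but dimethenamid, and Shisa5 without any 1 of the 5. Slc6a9 (0.38), Slc3a2 (0.19) and Shisa5 (0.20) also did not pass with other chemicals in place of vehicle (adjusted p = 0.607, 0.764 and 0.688).

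The 8 genes that fell did so by less than the antioxidant genes rose. Neurod1, a transcription factor of differentiating neurons, stood at -1.06 with alachlor and between -0.43 and -0.25 with the other four, against vehicle libraries from -0.48 to 0.62, with a group difference of -0.49 (SE 0.110, adjusted p = 0.042). Akap1, which anchors protein kinase A at mitochondria, had the most even values, from -0.32 to -0.21 over the 5 herbicides, 4 of them below the vehicle lowest of -0.21 (group -0.27, adjusted p = 0.047). Wdr6 was below all vehicle libraries with the herbicides other than dimethenamid, at -0.22, -0.17, -0.42 and -0.26 with acetochlor, alachlor, butachlor and metolachlor (group -0.23, adjusted p = 0.010). Wdr6 and Akap1 were the only genes below all vehicle libraries with at least 4 herbicides, 0.015% of all. Emc8 (-0.25), Bdh1 (-0.24), Tpst1 (-0.41), Ppp1r3e (-0.41) and Ccnyl1 (-0.46) made up the rest, with adjusted p from 0.010 to 0.047. Next by p stood Tubg1, the gamma-tubulin of centrosomes (-0.91, adjusted p = 0.058), and Agfg2 (-0.49, adjusted p = 0.059), which did not pass. Each of the 8 lost its call without at least 3 of the herbicides, taken 1 at a time. None of the 8 passed with the 292 other chemicals in place of vehicle, where the differences ran from -0.16 for Emc8 to -0.38 for Tpst1 and adjusted p from 0.106 to 0.782, and Ppp1r3e stood at -0.23.

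By the mm9 annotation, Srxn1 lies at chr2:151931252-151937112 and Hmox1 at chr8:77617490-77624495. Txnrd1 lies at chr10:82296696-82360469, Gclm at chr3:121948475-121972902, Mgst1 at chr6:138088837-138105276 and Gstm1 at chr3:107815173-107820891. These are whole protein-coding genes, and the values were made from reads over their exons.

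Each herbicide was then compared with vehicle on its own, as 1 library assumed to vary as vehicle libraries do. Acetochlor changed 10 genes, 0.0752% of those tested, with 6 higher (0.0451%) and 4 lower (0.0301%). The 6 were Hmox1, Srxn1, Mgst1, Gclm, Txnrd1 and Calr, with adjusted p from 8.2e-15 for Srxn1 to 0.0066 for Mgst1, so that 5 of the 6 belong to the antioxidant and glutathione lists. Among the 4 that fell, Smox, spermine oxidase, stood at -1.10 (adjusted p = 0.0187) while the other four herbicides were above the vehicle mean. Sarnp (-3.51), Timp4 (-3.60) and 2900076A07Rik (-3.96) had vehicle means of only 2.35 to 2.59 CPM.

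Alachlor raised 2 genes (0.015%), Srxn1 and Hmox1 (adjusted p = 4.4e-10 and 0.00032), and lowered 8 (0.0601%). The fall of Foxn2, a forkhead transcription factor, was -1.30 (SE 0.206, adjusted p = 0.00032), beside a vehicle range of -0.40 to 0.52. Neurod1 (-1.06), Sh3bgrl2 (-0.95), Rsbn1 (-0.78), Ikzf5 (-0.74), Pcm1 (-0.56) and Zfr (-0.34) fell as well, with adjusted p from 0.0066 to 0.042.

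Butachlor raised 5 genes (0.0376%) and lowered 5 (0.0376%). The rises were Hmox1, Srxn1, Gclm (adjusted p = 0.042), Txnrd1 (0.0016) and Slc1a4 (0.54, adjusted p = 0.0108), a transporter of serine and other neutral amino acids. Acat2, which joins acetyl groups ahead of cholesterol synthesis, fell to -0.97 (SE 0.195, adjusted p = 0.0126), with a vehicle range of -0.41 to 0.56 and a vehicle mean of 298 CPM. Agfg2 (-1.19), Rarb (-2.55), a retinoic acid receptor, and Tlcd1 (-2.90) also fell, with adjusted p from 0.0016 to 0.018.

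The fall called with both alachlor and butachlor was that of C1qc, a complement chain made by microglia, at -3.04 and -2.92 (SE 0.543, adjusted p = 0.0030 and 0.0045), below vehicle libraries that ran from -1.43 to 1.14. With acetochlor C1qc stood at -0.68, with metolachlor at -0.07 and with dimethenamid at 0.31. In bulk RNA, fewer cells of a type and less RNA per cell cannot be told apart. Of the 10 microglial markers 5 were in the table, and with alachlor 2 lay below all vehicle libraries (C1qc and Cx3cr1 at -2.0) while C1qa (0.50), C1qb (0.70) and Csf1r (0.64) were above the vehicle mean. With butachlor the 5 stood at -2.92 for C1qc, -1.32 for Cx3cr1, -0.59 for C1qa, -0.55 for C1qb and 0.48 for Csf1r. C1qc had a vehicle mean of 9.05 CPM. As a group none of the 5 markers passed the test, their median was -0.59 and 1 of them was above 0. The median of the 5 markers in single vehicle libraries ran from -0.78 to 0.83, which held the medians of all 5 herbicides (-0.59 to 0.50), and the part of microglial number in these values was not tested.

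Metolachlor raised 1 gene (0.00752%), Srxn1 (0.97, SE 0.160, adjusted p = 0.0026), and lowered 5 (0.0376%). Among these were Folh1 (-2.16), F420014N23Rik (-1.87), 9130401M01Rik (-1.80) and Slc25a33 (-1.36), a mitochondrial carrier of pyrimidine nucleotides. Folh1 and F420014N23Rik had vehicle means of only 1.18 and 3.30 CPM, and 9130401M01Rik and Slc25a33 of 20.3 and 21.4 CPM. Dimethenamid raised 0 genes and lowered 8 (0.0601%) at an adjusted p below 0.05, with 611 genes in either direction at an unadjusted p below 0.05. Its falls included Eif2ak2, the RNA-activated protein kinase (-2.72, SE 0.435, adjusted p = 0.0012), Drap1 (-1.16, adjusted p = 0.0067) and Npm3 (-3.93, adjusted p = 0.0096). Of the 8 genes that fell with dimethenamid, Drap1 alone had a vehicle mean above 10 CPM (82.9 CPM). None of the 8 is on the antioxidant, glutathione or fatty acid lists.

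Against the 282 chemicals of the screen with 1 library, which had a median of 6.5 called genes with quartiles of 2 and 12 and a highest count of 1280, the 5 herbicides, themselves included there, had counts of 6 to 10 that lay between the quartiles. Among their rises Srxn1 was called with 4 herbicides and Hmox1 with 3.

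Among stress genes outside the antioxidant lists, the butachlor library stood furthest from vehicle. The list of genes driven by ATF4, the factor of the amino acid and integrated stress response, held 42, of which 41 were in the table and 1, Slc3a2, rose as a group. The group median was 0.19, with 39 of 41 above 0 beside 47.5% of all genes, and it was 0.07 with other chemicals in place of vehicle. The median was 0.60 with butachlor, 0.17 with metolachlor, 0.12 with alachlor, 0.06 with acetochlor and 0.02 with dimethenamid, and single vehicle libraries ran from -0.27 to 0.39. Only butachlor lay above that range, and 13 of 41 genes lay above every vehicle library there, beside 1.83% of all genes. The other herbicides had 1 to 3 such genes, beside 1.45% to 2.97% of all genes. Examples with butachlor were Shmt2 (0.90), Atf5 (0.89), Sesn2 (0.85), Slc7a5 (0.63) and Psat1 (0.63), and Atf4 itself stood at 0.36 inside its vehicle range. No listed gene passed the test with butachlor alone, and without butachlor the group median was 0.10.

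Trib3, Ddit3, Chac1 and Atf3, transcripts of the same response, did not pass the test as a group, with differences of 0.68, 0.10, 0.31 and 0.12. Heat shock genes gave 24 of 25 in the table, 0 called and a median of 0.01. With butachlor 6 of the 24 lay above all vehicle libraries and 1 below, beside 1.83% and 2.43% of all genes. Among the 6 were Hspa1a (1.71) and Hspa1b (1.54), whose reads cannot be told apart with confidence because they are near-identical copies. Hspa8 stood at 0.44 and Hsph1 at 0.50 in the same library.

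Cholesterol synthesis genes lay lower with butachlor. The list held 27, with 24 in the table, 0 called as a group and a group median of -0.14, and 5 of 24 were above 0. By compound the median was -0.49 with butachlor, -0.24 with acetochlor, -0.06 with metolachlor, 0.05 with dimethenamid and 0.07 with alachlor, against -0.37 to 0.54 in single vehicle libraries. Butachlor was the 1 herbicide outside the vehicle range, and 13 of its 24 genes lay below every vehicle library, where 2.43% of all genes did. Over all genes the share below every vehicle library was 2.08% with acetochlor, 2.93% with alachlor, 2.48% with metolachlor and 1.83% with dimethenamid. Values with butachlor were -1.12 for Mvd, -1.10 for Mvk, -0.94 for Lss and -0.90 for Nsdhl, all enzymes of the pathway. Acat2 was the only listed gene that passed the test with butachlor. Alachlor, which differs from butachlor in the length of the alkoxy chain, had 0 of 24 below the vehicle libraries. Without butachlor the group median of the list was -0.05.

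Fatty acid elongation is the process the herbicides block in plants. Of the 44 listed genes 39 were in the table, 0 were called and the group median was 0.01, with 21 of 39 above 0. Group differences of the elongases were 0.32 for Elovl1, 0.05 for Elovl2, 0.01 for Elovl4, 0.07 for Elovl5, -0.03 for Elovl6 and -0.02 for Elovl7, and every library lay within the vehicle range for each of the 6. By compound the list median was 0.10 with alachlor, just above the -0.07 to 0.08 of single vehicle libraries, and between -0.02 and 0.04 with the other four. RNA levels say nothing of enzyme activity.

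**Figure D3:**
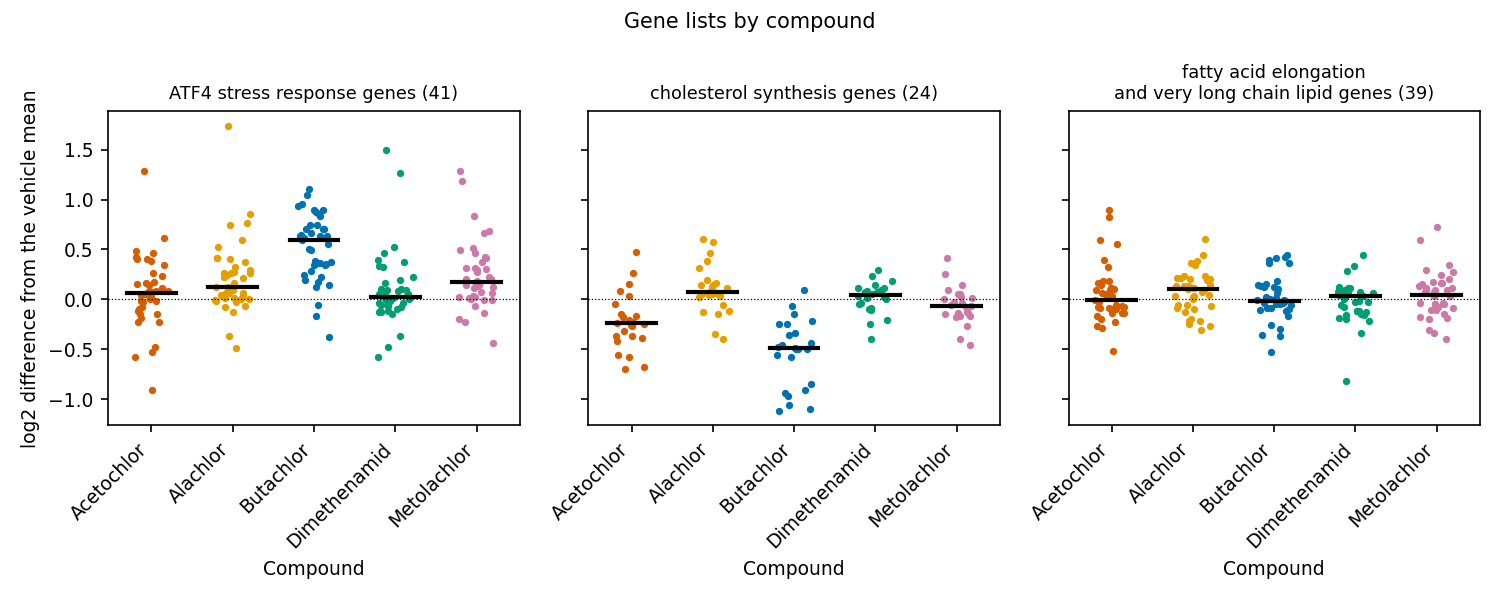
Each point is 1 gene of the ATF4 (41), cholesterol synthesis (24) or fatty acid elongation (39) list, with the herbicides on the horizontal axis, the log2 difference from the vehicle mean on the vertical axis and a bar at the list's median. The butachlor column is shifted up for ATF4 genes (0.60) and down for cholesterol genes (-0.49), and the elongation medians lie between -0.02 and 0.10.

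The remaining lists gave no called gene. Medians of the group were 0.09 for 20 xenobiotic receptor and drug metabolism genes, 0.03 for 24 p53 target genes, 0.12 for 36 activity-induced genes, -0.01 for 56 synaptic and ion channel genes, 0.05 for 10 thyroid hormone genes and 0.08 for 4 metallothionein and zinc exporter genes. The contractile and matrix-associated list had 0 of 12 genes above 0 and a median of -0.30. This list was as low with amides that are no chloroacetamides, with medians of -0.36 for metalaxyl, -0.30 for napropamide and -0.32 for propanil, and vehicle libraries ran from -0.74 to 0.45. The Ugt1a genes, glucuronosyltransferases that share exons so that their counts are not separate, stood between 0.95 and 1.62 with acetochlor, alachlor and butachlor, between -0.26 and 0.86 with metolachlor and between -1.38 and -0.76 with dimethenamid, and did not pass the test. Of the always-named genes, Fos (0.48), Bdnf (0.28), Acta2 (-0.27), Gfap (-0.36) and Gsta4 (0.59) did not pass the test as a group. Marker lists of neurons, astrocytes, the oligodendrocyte lineage, mural cells and fibroblasts, and dividing cells held 0 called genes, with group medians of -0.07, -0.02, 0.19, -0.23 and 0.08.

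All 5 herbicides had the same dose and time, so they were compared with each other directly over 10 pairs, with adjustment over all 133040 combinations of gene and pair. Of these 6 passed, 0.00451%, and 4 of the 6 were Srxn1. For most genes a pair of single libraries gave a wide interval, with a median 95% interval of 0.715 to either side of the difference, so that moderate differences were not detectable.

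Acetochlor and alachlor, the isomers, differed in Srxn1 by 0.56 (95% interval 0.11 to 1.01, adjusted p = 0.93), in Hmox1 by 0.24 (-0.66 to 1.14) and in Gclm by 0.78 (0.24 to 1.33, adjusted p = 0.80), none of which passed. The 1 gene that did was Ikzf5, an Ikaros family zinc finger factor, higher with acetochlor by 1.20 (0.75 to 1.65, adjusted p = 0.0477). Ikzf5 stood at -0.74 with alachlor, below all vehicle libraries, and at 0.45 with acetochlor, inside them.

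Alachlor and butachlor differ in the alkoxy chain. Srxn1 was 0.24 higher with alachlor (-0.21 to 0.69) and Hmox1 0.02 lower (-0.92 to 0.87), and neither passed. Gclm was 0.45 lower with alachlor (-1.0 to 0.09). Foxn2 was lower with alachlor by 1.64 on the log2 scale (the difference was -1.64, -2.22 to -1.06, adjusted p = 0.0188), since it fell with alachlor and stood at 0.34 with butachlor.

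Acetochlor and metolachlor share the ring and differ in the side chain. Srxn1 was 1.27 higher with acetochlor (0.82 to 1.72, adjusted p = 0.0188). Gclm was 1.04 higher (0.50 to 1.59, adjusted p = 0.42), Hmox1 1.03 higher (0.14 to 1.93, adjusted p = 1.00) and Nqo1 3.11 higher (0.70 to 5.52, adjusted p = 0.91), and none of these passed over the 10 pairs although each interval lay above 0. Txnrd1 differed by 0.21 (-0.18 to 0.61). With the spread taken from all libraries of the screen in place of vehicle libraries, the Srxn1 difference of this pair no longer passed (adjusted p = 0.0705), nor did it among genes with an SD above 0.1 on the log10 scale (0.132).

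Metolachlor and dimethenamid share the side chain and differ in the ring. No gene passed, with 595 at an unadjusted p below 0.05. Dimethenamid was lower than metolachlor in Srxn1 (-0.87, -1.32 to -0.42, adjusted p = 0.41), in Hmox1 (-1.07, -1.96 to -0.17, adjusted p = 0.97) and in Txnrd1 (-0.49, -0.89 to -0.10, adjusted p = 0.94). In Gclm the difference was 0.00, with an interval of -0.54 to 0.55 that still allows a difference in either direction.

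Dimethenamid against the 3 herbicides with alkoxymethyl chains gave the remaining Srxn1 differences, 2.15 for acetochlor (1.70 to 2.60, adjusted p = 8.5e-08), 1.58 for alachlor (1.13 to 2.03, adjusted p = 0.00031) and 1.35 for butachlor (0.90 to 1.80, adjusted p = 0.0091). The last did not pass among genes with an SD above 0.1 on the log10 scale (adjusted p = 0.130). For Hmox1 the same pairs differed by 2.10, 1.86 and 1.88, with intervals above 0 and adjusted p of 0.17, 0.31 and 0.30. Between acetochlor and butachlor Srxn1 differed by 0.80 (0.35 to 1.25, adjusted p = 0.50).

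**Figure D4:**
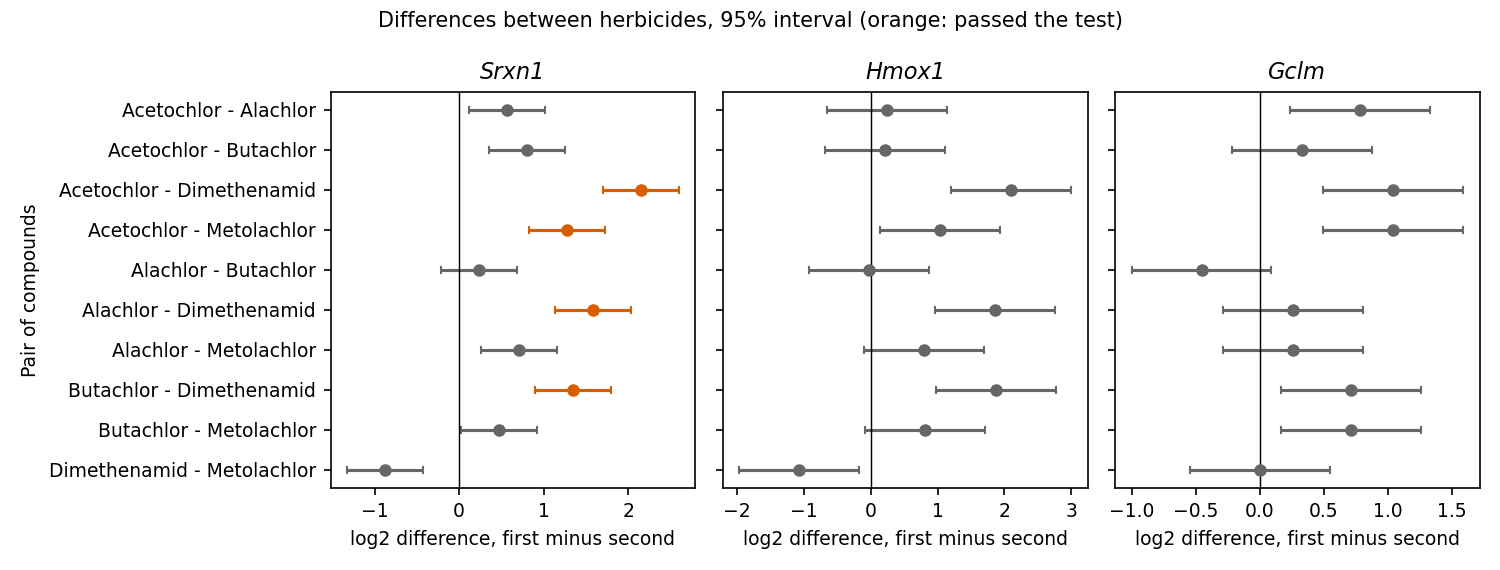
For Srxn1, Hmox1 and Gclm, the 10 pairs of herbicides are on the vertical axis and the log2 difference, first minus second, with its 95% interval is on the horizontal axis, and orange marks differences that passed the test over 10 pairs. The 4 orange intervals all belong to Srxn1, and those of Hmox1 are wider and none passed.

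To set the chloroacetyl group against other amides at the same dose, the 5 herbicides were compared with metalaxyl, napropamide and propanil at 10 μM, 1 library each. These are an N-aryl amide fungicide and a pair of amide herbicides without a chloroacetyl group. Of all genes 3 passed, 0.0225%, all higher with the chloroacetamides. Srxn1 differed by 1.28 (0.89 to 1.66, adjusted p = 0.00017), with metalaxyl at -0.00, napropamide at 0.02 and propanil at -0.01. Hmox1 differed by 1.72 (1.17 to 2.28, adjusted p = 0.00043), with the amides at -0.05, -0.09 and -0.39. All 3 amides lay within the vehicle range for both genes, as dimethenamid did.

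Txnrd1 differed by 0.58 (0.35 to 0.80, adjusted p = 0.021), with the amides between -0.07 and 0.04. It no longer passed without acetochlor (adjusted p = 0.175), alachlor (0.0566), butachlor (0.234), metalaxyl (0.112), napropamide (0.0860) or propanil (0.264), while Srxn1 and Hmox1 passed without any 1 of the 8 libraries. Without alachlor 2 genes were lower with the herbicides, beside 0 with all 5. A Gclm difference was not detectable (0.19, -0.14 to 0.51, adjusted p = 0.89), and metalaxyl, napropamide and propanil themselves stood at 0.45, 0.39 and 0.34. Gstm1 (0.89, 0.46 to 1.31, adjusted p = 0.18) and Mgst1 (0.99, 0.36 to 1.62, adjusted p = 0.49) did not pass. Flufenacet, an oxyacetanilide herbicide that also blocks fatty acid elongation, was used at 1 μM, so its values stand only beside these, at -0.02 for Srxn1, 0.33 for Hmox1 and -0.11 for Gclm.

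The herbicides were also set against the 292 other chemicals of the screen, each as the median of its libraries. No vehicle library entered this test, and its spread was that between chemicals. Of all genes 14 passed, 0.105%. Of these 9 were higher (0.0676%), namely Srxn1 (1.18), Txnrd1 (0.51), Hmox1 (1.28), Calr (0.26), Gclm (0.52), Mgst1 (0.95), Gstm1 (0.68), Gprc5b (0.57) and Zeb1 (0.37), and 5 were lower (0.0376%), namely Abracl (-0.91), Gm1673 (-0.78), Tagap (-0.75), Agfg2 (-0.51) and Qdpr (-0.39). This comparison uses the same 5 herbicide libraries as that with vehicle, so it is no separate evidence for their part of the difference. Without acetochlor or without butachlor 1 gene was higher and 0 lower, and without alachlor 4 and 4.

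Among the 297 chemicals ordered from the highest, Srxn1 placed acetochlor 2, alachlor 4, butachlor 5, metolachlor 15 and dimethenamid 139. The chemical above acetochlor was phosalone, an organophosphate (2.38), and quintozene (1.72) stood between acetochlor and alachlor. Naled (1.36) and trichlorfon (1.31) lay close to butachlor in Srxn1 and stood at 2.42 and 2.15 in Hmox1. In Hmox1 phosalone (2.88), pyraclostrobin at 0.1 μM (2.50) and naled stood above acetochlor. For Hmox1 the places were 4, 9, 8, 20 and 165, for Txnrd1 4, 7, 2, 11 and 140 and for Calr 1, 2, 4, 24 and 105, in the order acetochlor, alachlor, butachlor, metolachlor and dimethenamid. Acetochlor was highest of all chemicals for Mgst1, Nqo1 and Calr, and dimethenamid stood near the middle of the order for Srxn1, Hmox1 and Txnrd1. A value of Srxn1 above all vehicle libraries was seen with 47 of the 297 chemicals and one of Hmox1 with 48.

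**Figure D5:**
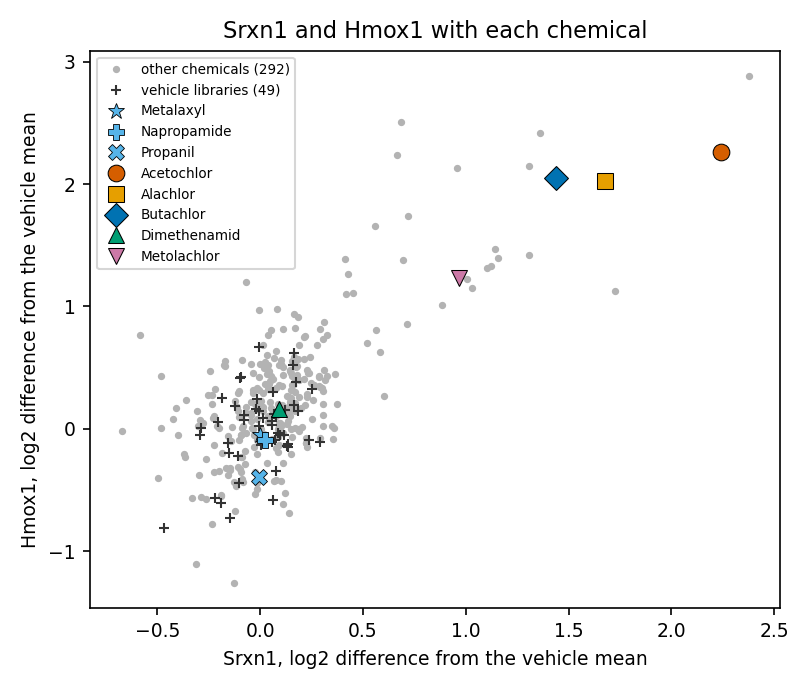
Each chemical is placed by its log2 difference from the vehicle mean in Srxn1 (horizontal axis) and Hmox1 (vertical axis), with grey points for other chemicals, crosses for the 49 vehicle libraries and larger symbols for the 5 herbicides and 3 amides. Acetochlor, alachlor and butachlor stand at the upper right with other chemicals, among them phosalone, naled and trichlorfon. Metolachlor lies lower, and dimethenamid and the amides lie among the vehicle libraries.

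Over the 5121 genes of variable expression, whole profiles of the herbicides were little alike. Spearman's correlation across genes, given as a description, had a median of 0.03 over the 10 pairs and ran from -0.02 to 0.10, while all 43956 pairs of chemicals had a median of 0.01 with 5th and 95th percentiles of -0.06 and 0.07. Alachlor and butachlor were the most alike (0.10), and acetochlor and butachlor followed (0.08). The closest chemical to acetochlor was phosalone (0.09), to alachlor azinphos-methyl (0.11), to butachlor emamectin benzoate (0.14, at 1 μM), to metolachlor dicofol (0.09) and to dimethenamid MCPA (0.07). The profiles correlated here were the values centred on each gene's median, without subtraction of the vehicle mean. Genes within a library are not independent.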

How the data were processed

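The authors aligned reads to mm9 with TopHat, counted them over exons of RefSeq genes, computed RPKM, took log10, applied quantile normalization, subtracted each gene's median and corrected the values for culture and sequencing batches before they deposited the table. Batches, depth and levels can therefore no longer be examined in the table, and no pseudocount applied. Raw counts, deposited without normalization for 4 vehicle libraries of another experiment, served only for vehicle CPM. The values were converted to log2 and tested with limma 3.58.1 (R 4.3.3), without a variance trend, two-sided, with Benjamini-Hochberg adjustment over 13304 genes at 0.05. The code was checked on simulated data. A single library was assumed to vary as the vehicle libraries do, and its p-value compares libraries rather than conditions. The members, gene lists and tests were chosen with earlier results of these data known. Genes were named by rule: the 10 largest group changes in each direction with all 5 libraries on one side (or, if fewer, of lowest p), the 5 largest called changes of each compound, the 3 largest called in the pairs of one structural change and in the comparisons with amides and other chemicals, called list genes, and a set of stress and elongation genes given always; Hmgcs1 and Elovl3 of that set were not used here. Not every gene named by the rule is printed. Alternatives were a variance trend, robust fit, array weights, filters, a threshold of 0.01, other chemicals as comparison group, library centring, the spread of all libraries, adjustment within pairs and leaving out each library. Promoters came from RefSeq (GRCm38.p6), gene positions from an mm9 annotation, and figures were drawn with matplotlib 3.10.9.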

Additional observations from a re-analysis of the deposited data

Results flagged for a closer look

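In 13 of the 63 genes examined in the group of 5 herbicides, 1 library stood apart from the other four, by a gap of more than 0.71 of the whole range (Dixon's 95% critical value for 5 samples). Chance alone would pick out about 1 in 20 groups, and most of these genes were examined because they had been called with that one herbicide, so the number is raised by their choice. The ratio was 0.968 for Rsbn1, 0.863 for Sh3bgrl2 and 0.778 for Neurod1, with alachlor lowest. It was 0.811 for Sarnp, 0.775 for 2900076A07Rik and 0.765 for Smox, with acetochlor lowest. Metolachlor was the lowest library for Slc25a33 (0.85), F420014N23Rik (0.806) and 9130401M01Rik (0.789), and dimethenamid for Eif2ak2 (0.818). With butachlor Slc1a4 stood apart as the highest (0.781), and Rarb (0.741) and Acat2 (0.715) as the lowest.

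Between herbicides at the same dose and time, 6 differences passed the test over 10 pairs, given as log2 differences of the first against the second. Srxn1 differed by 2.15 between acetochlor and dimethenamid, by 1.58 between alachlor and dimethenamid, by 1.35 between butachlor and dimethenamid and by 1.27 between acetochlor and metolachlor. Ikzf5 differed by 1.2 between acetochlor and alachlor, and Foxn2 by -1.64 between alachlor and butachlor. Each rests on 1 library per herbicide, and the reason for these differences was not tested.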

How the results depend on the processing

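Each herbicide had 1 library. In the main tests of single herbicides and of pairs, the spread within a condition came from vehicle libraries alone. Other chemicals with more than 1 library entered that spread only in the alternative with the spread of all libraries. Srxn1, Hmox1 and Txnrd1 stayed called in the herbicides against vehicle under each alternative that tested them (13, 13 and 12 of 13), and Srxn1 and Hmox1 against the amides under all of theirs. No difference that passed in the main or the alternative setting changed its direction. Among those that did not pass, some did. With other chemicals in place of vehicle, Atf3 (-0.05), Ddit3 (-0.02) and Elovl7 (0.03) had the opposite sign. No paired analysis was possible because the herbicide titles carry no replicate number that pairs them with vehicle libraries. The group comparison with vehicle gave 11 higher and 8 lower genes. These became 18 and 21 with array weights and 6 and 0 at an adjusted p below 0.01. Among genes with SD above 0.1 on the log10 scale they became 4 and 0. That filter removed most of the called genes untested, among them Txnrd1, Gclm and all 8 lower genes. Of the called genes it kept, only Slc6a9 lost its call. There were 5 lower genes against other chemicals and 5 after centring each library on its median. Leaving out 1 herbicide gave 3 to 16 higher and 1 to 18 lower genes against vehicle, 1 to 11 higher and 0 to 6 lower against other chemicals, and 0 to 2 lower against the amides. At an adjusted p below 0.01 the comparison with other chemicals gave 3 higher and 0 lower, the pairs 3 calls, and single herbicides 2 lower with acetochlor, 3 lower with alachlor, 3 higher and 3 lower with butachlor, 3 lower with dimethenamid and 0 lower with metolachlor. Among genes with SD above 0.1 the pairs gave 2 calls, acetochlor 3 higher, alachlor 3 lower, and butachlor 2 higher and 3 lower. A variance trend gave 13 lower genes with alachlor. With the spread of all libraries there were 15 lower with alachlor, 10 higher and 11 lower with butachlor, 9 lower with metolachlor and 10 calls over the pairs. Some of these settings use a stricter threshold or fewer genes or libraries, and the cause of the shifts was not tested. For single genes, 957 values kept their side of the threshold, 173 fell short of it and 16 newly passed.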
